A study of Mus musculus with 2 samples.

Results

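The genes described here are 10 chaperone genes of the muscle cell, measured by total RNA sequencing of embryonic mouse heart. They are the small heat shock protein genes Hspb1, Hspb2, Hspb3, Hspb6, Hspb7, Hspb8 and Cryab, the co-chaperone gene Bag3, the myosin chaperone gene Unc45b and the cytosolic HSP90 gene Hsp90aa1. They were chosen by name and were found by matching gene identifiers to GENCODE M21, in which 42462 genes of the tables have a symbol and 21474 of those are protein-coding. All 10 were found, with 26 transcripts. The study has a single group of 2 libraries, named biological replicates 1 and 2, from pooled hearts of male and female B6NCrl embryos at embryonic day 16.5. Replicate 2 came from 41 embryos; the size of the pool of replicate 1 is not stated. No treatment or genotype is named, and each library was made from 10 ng of RNA over 200 nt in size. The labels give separate biosamples under the same donor identifier. Each pool gave 1 library, so a difference between pools and a difference in library preparation cannot be told apart. The tables hold 37160624 and 40360242 estimated counts. Levels are in TPM, a relative abundance corrected for transcript length, as mean ± SD of the 2 libraries (n = 2) unless a value is given per library. Flipping the signs of 2 values gives, by an exact permutation test, a two-sided p of 0.5 at the least, and comparisons are therefore given without a test.

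Small heat shock proteins share an alpha-crystallin domain and hold unfolding proteins without using ATP, passing them on to HSP70 for refolding or to degradation. In heart and skeletal muscle they bind desmin, actin, filamin and titin, which are under repeated mechanical load. BAG3 joins small heat shock proteins, HSPB8 above all, to HSP70 and directs damaged Z-disc proteins to autophagy. UNC45B works with HSP90 to fold the myosin head. Many of these genes are induced under stress by heat shock factor 1, which binds inverted repeats of the letters GAA.

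Both libraries held all 10 genes at 1 TPM or more, against 59.1% of protein-coding genes. Of them, 7 stood at 100 TPM or more in both, against 5.91%. The members' median was 179 TPM, and that of the 12987 protein-coding genes averaging at least 1 TPM was 15.3 TPM. Together the members held 0.33% of the TPM of protein-coding genes in each library. As a check of the tissue label, each of the 10 cardiomyocyte markers listed exceeded 10 TPM in either library (median 3073 TPM). In such bulk RNA fewer cells of a type and less RNA per cell cannot be told apart.

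Hspb1, known as HSP25 in the mouse, and Cryab, alpha-B-crystallin, were the most abundant of the small heat shock protein genes. Hspb1 (ENSMUSG00000004951.10; chr5:135887919-135889563, plus strand, mm10) had 812 TPM in replicate 1 and 659 TPM in replicate 2. Cryab (ENSMUSG00000032060.9; chr9:50751325-50756636, plus strand) had 719 and 722 TPM. Hspb1 was the higher of the pair in replicate 1 and Cryab in replicate 2, so their order was not fixed by these libraries. By mean TPM they ranked 136 and 142 among protein-coding genes. Of the summed TPM of the 7 small heat shock protein genes, Hspb1 held 35.1% ± 3.46, Cryab 34.5% ± 1.79 and both together 69.7% ± 1.68.

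Hspb7, Hspb2 and Hspb6 formed the middle of the family. Hspb7, the cardiovascular family member that binds filamin C, had 187 TPM in replicate 1 and 233 TPM in replicate 2 (ENSMUSG00000006221.7; chr4:141420779-141425311, plus strand). Hspb2, first described as a binding protein of myotonic dystrophy kinase, had 206 and 176 TPM (ENSMUSG00000038086.3; chr9:50751078-50752354, minus strand). Hspb6, also called Hsp20 and a target of cyclic nucleotide-dependent kinases, had 171 and 163 TPM (ENSMUSG00000036854.10; chr7:30552178-30555443, plus strand). The values of Hspb7 and Hspb2 overlapped between the libraries, and Hspb6 was the lowest of these genes in both. These genes held 10.1% ± 2.05, 9.14% ± 0.588 and 7.98% ± 0.124 of the summed small heat shock protein TPM.

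Hspb3 and Hspb8 were lower. Hspb3, the partner of HSPB2 in muscle complexes, had 37.3 and 39.1 TPM (ENSMUSG00000051456.4; chr13:113662896-113663676, minus strand). Hspb8, also called Hsp22 and the main small heat shock protein partner of BAG3, had 28.3 and 24.7 TPM (ENSMUSG00000041548.4; chr5:116408491-116422864, minus strand). They held 1.83% ± 0.15 and 1.27% ± 0.0589 of the family's summed TPM. No value of these genes reached those of Hspb7, Hspb2 or Hspb6: the lowest of the latter was 163 TPM and the highest of the former 39.1 TPM.

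Among the other chaperones, Bag3 was the lowest member, at 21.5 and 17.9 TPM (ENSMUSG00000030847.7; chr7:128523616-128546981, plus strand), and ranked 5599 among protein-coding genes. Unc45b stood at 168 and 149 TPM (ENSMUSG00000018845.10; chr11:82910550-82943403, plus strand), next to Hspb6. Hsp90aa1 stood at 514 and 547 TPM (ENSMUSG00000021270.9; chr12:110690605-110702728, minus strand), below Cryab and above Hspb7 in both libraries. Read counts behind the values ran from 679 for Hspb3 in replicate 1 to 23247 for Cryab in replicate 2, so no member was near the limit of detection.

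**Figure D1:**
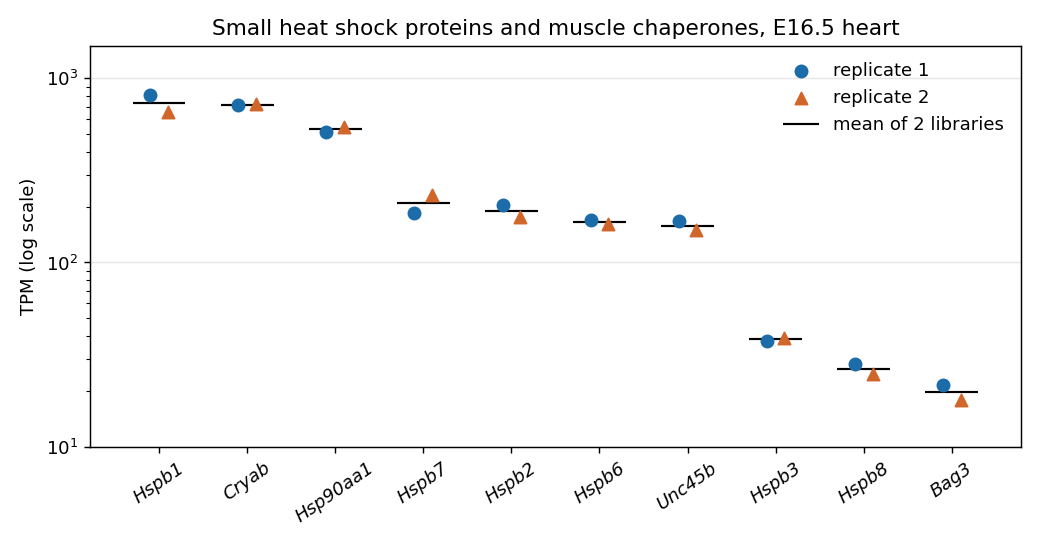
TPM of each member (vertical axis, log scale) in replicate 1 (circles) and replicate 2 (triangles), with bars at the mean of the 2 libraries. Hspb1, Cryab and Hsp90aa1 lie between 514 and 812 TPM, Hspb7, Hspb2, Hspb6 and Unc45b between 149 and 233 TPM, and Hspb3, Hspb8 and Bag3 between 17.9 and 39.1 TPM.

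Neighbours in this order were compared by the log2 ratio of their TPM within each library. Of the 9 neighbouring pairs, 5 had a mean ratio over 2 SD from 0: Cryab over Hsp90aa1 (0.44 ± 0.06), Hsp90aa1 over Hspb7 (1.35 ± 0.16), Unc45b over Hspb3 (2.05 ± 0.17), Hspb3 over Hspb8 (0.53 ± 0.19) and Hspb8 over Bag3 (0.43 ± 0.05). The other 4 did not differ beyond that spread. Hspb1 over Cryab (0.02 ± 0.22) and Hspb7 over Hspb2 (0.13 ± 0.39) changed direction between the libraries. Hspb2 over Hspb6 (0.19 ± 0.12) and Hspb6 over Unc45b (0.07 ± 0.07) kept their direction with means under 2 SD. The authors' credibility intervals were apart in both libraries for every neighbouring pair except Hspb6 and Unc45b, which overlapped in replicate 1. Those intervals cover counting and read assignment only, and a TPM value can lie outside its own interval, as for Cryab in replicate 1 (718.7 TPM, interval 694 to 713).

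Cryab and Hspb2 lie head to head on chromosome 9 and are transcribed away from each other. In M21 the starts of the quantified transcripts, at 50752907 for Cryab and 50752293 for Hspb2, are 614 bases apart. Cryab exceeded Hspb2 by 3.48-fold in replicate 1 and 4.1-fold in replicate 2 (mean log2 ratio 1.92 ± 0.17). The M21 gene model of Cryab begins further upstream, inside Hspb2, and the 2 models share 1030 bases on opposite strands. The tables quantified 1 transcript per gene here, of 1185 nt for Cryab and 840 nt for Hspb2, lengths that differ from those of the same transcripts in M21 (946 and 773 nt). Whether reads were counted by strand is not given in the sources used here, so reads of any shared stretch cannot be told apart.

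Other pairs of related or partner genes were compared in the same way. Hspb2 exceeded Hspb3, with which it forms a complex in muscle, by 5.54-fold and 4.5-fold in the 2 libraries (log2 2.32 ± 0.21). Hspb8 exceeded Bag3 by 1.31-fold and 1.38-fold (log2 0.43 ± 0.05), a direction that turned with counts not corrected for length (log2 -0.12), the Bag3 transcript being 2591 nt and the main Hspb8 transcript 1816 nt. Hspb7 exceeded Hspb6 by 1.09-fold in replicate 1 and 1.43-fold in replicate 2 (log2 0.32 ± 0.27), a mean under 2 SD from 0. The muscle gene Unc45b exceeded its widely expressed paralog Unc45a (19.9 and 16.2 TPM) by 8.43-fold and 9.2-fold (log2 3.14 ± 0.09). For Cryab over Hspb1 the ratio was 0.885 in replicate 1 and 1.1 in replicate 2, so neither was higher in both.

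The inducible cytosolic HSP90 gene, Hsp90aa1, was lower than the constitutive gene Hsp90ab1 (1019 and 936 TPM) in both libraries, with Hsp90ab1 1.84-fold higher on average (log2 ratio of Hsp90aa1 over Hsp90ab1 -0.88 ± 0.15). Most of the Hsp90aa1 TPM was on transcript models that do not hold the whole coding sequence in M21. A transcript of 711 nt held 54.8% ± 0.0141 of it. This transcript begins at a start near position 110702728, upstream of the start of the full-length form at 110696395. It has 4 exons, and M21 marks its coding sequence of 605 nt as incomplete at the end. Whether the RNA behind it encodes the whole protein cannot be told from that model. A retained-intron transcript of 924 nt held 20.3% ± 0.403. The 2 transcripts with the whole coding sequence of 2199 nt, of 3281 and 2852 nt, held 21.9% ± 1.07 and 1.98% ± 0.488.

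By estimated counts, where short transcripts weigh less, the full-length Hsp90aa1 transcripts held 59.7% ± 1.81 and the 711 nt transcript 26.7% ± 0.888. The short forms share exons with the full-length forms, so the split rests on how reads were assigned. For Hsp90ab1 the 2520 nt transcript with the whole coding sequence of 2172 nt held 79.1% ± 3.96 of the TPM, and a 703 nt transcript of the nonsense-mediated decay class 18.8% ± 4.70. Counting only transcripts with the whole coding sequence in M21, Hsp90aa1 had 129 and 124 TPM and Hsp90ab1 had 777 and 766 TPM. This leaves out the incomplete 711 nt model of Hsp90aa1. On that basis, chosen after the values were seen, Hsp90ab1 was 6.1-fold higher (log2 -2.61 ± 0.02), and Hsp90aa1 would stand below Unc45b among the members.

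**Figure D2:**
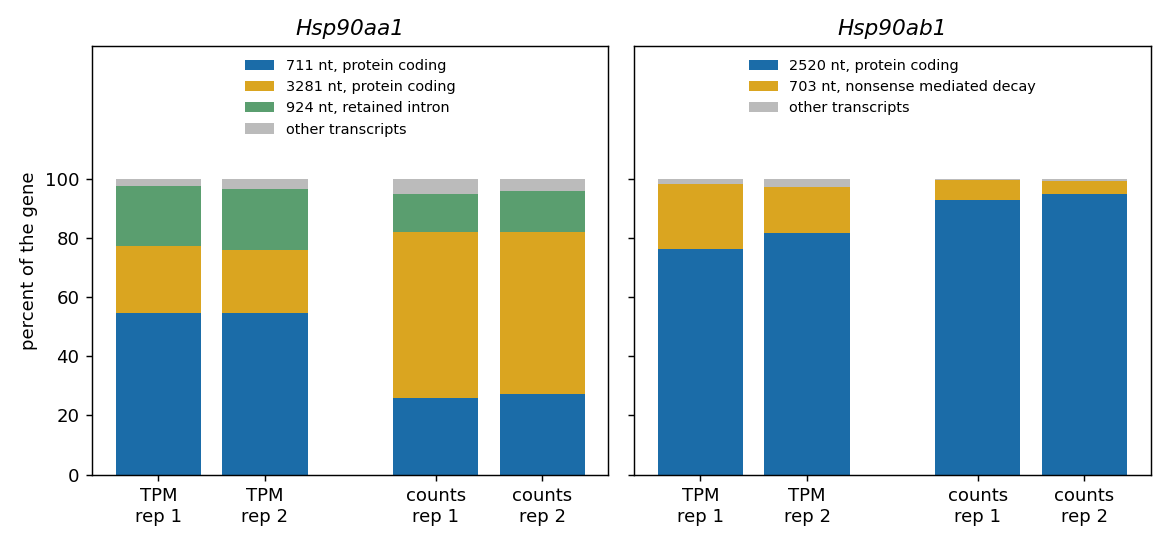
Percent of the gene (vertical axis) on each transcript of Hsp90aa1 and Hsp90ab1, by TPM and by estimated counts in each replicate; colours are transcripts, named by length and M21 class, and grey is all others. The 711 nt transcript of Hsp90aa1 takes 54.8% of the TPM but 26.7% of the counts, while the 2520 nt transcript leads Hsp90ab1 on both scales.

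The other 9 members rested on a single transcript each, and 5 of the 10 have only 1 transcript in the tables. The main transcript held 99.9% ± 0.0495 of Hspb1, 99.1% ± 1.24 of Hspb8, 97.3% ± 0.799 of Hspb6 and 96.0% ± 1.72 of Unc45b. For 23 of the 26 member transcripts the M21 length equals that in the tables. The main small heat shock protein transcripts are compact, with coding sequences from 462 nt (Hspb3) to 627 nt (Hspb1). In M21 those of Hspb1, Cryab, Hspb6, Hspb7 and Hspb8 have 3 exons, that of Hspb2 has 2 and Hspb3 is a single exon. The Hspb7 transcript is the longest of them at 2769 nt. It had 13319 and 18434 counts against 4085 and 3865 for Hspb2, whereas by TPM it was below Hspb2 in replicate 1 and above it in replicate 2. The main Unc45b transcript has 20 exons and a coding sequence of 2787 nt, and Bag3 has 4 exons and 1731 nt.

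Hspb6 has 4 transcripts in the tables, and RefSeq gives a promoter window at 2 of its start sites. The coding transcript, 33 bases from the downstream of these sites, which begins at 30553268, had 167 and 157 TPM. A processed transcript from 30552524, 16 bases from the upstream site, had 2.33 and 3.88 TPM, or 1.88% ± 0.714 of the gene. On the opposite strand the Hspb6 gene model overlaps Proser3 (4.97 TPM ± 0.792) by 122 bases and Lin37 (30.1 TPM ± 2.64) by 3 bases. Unc45b overlaps the opposite-strand genes Unc45bos (0.76 TPM ± 0.113) and Slfn5os (1.68 TPM ± 0.297), both far below it.

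Promoter windows were available from RefSeq (build GRCm38.p6) for 7 members, as 8 windows of 250 bases before and 50 bases from the start site on. Those of Cryab, Hspb2 and Hsp90aa1 were not used here. The windows were searched on both strands for the heat shock element of 2 inverted units, spelled GAANNTTC or TTCNNGAA. It was found in 5 of the 7 members, and 15.1% of the 32851 RefSeq windows of this length hold it. In 4 of these 5 the match was the same 8 letters, GAAGTTTC, which 1.21% of all windows hold on either strand; this spelling was singled out after the windows had been seen. The 5 windows are printed because they carry these matches, 5′ to 3′ on the strand of the gene, with the matches to the 2-unit element in capitals.
Hspb1, chr5:135887669-135887968, plus strand: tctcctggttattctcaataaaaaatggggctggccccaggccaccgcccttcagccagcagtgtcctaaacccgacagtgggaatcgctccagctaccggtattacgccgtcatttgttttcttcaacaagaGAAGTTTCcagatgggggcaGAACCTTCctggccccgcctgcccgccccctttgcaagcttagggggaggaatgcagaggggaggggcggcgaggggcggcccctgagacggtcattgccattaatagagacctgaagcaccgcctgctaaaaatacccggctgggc
Hspb6, main start, chr7:30553051-30553350, plus strand: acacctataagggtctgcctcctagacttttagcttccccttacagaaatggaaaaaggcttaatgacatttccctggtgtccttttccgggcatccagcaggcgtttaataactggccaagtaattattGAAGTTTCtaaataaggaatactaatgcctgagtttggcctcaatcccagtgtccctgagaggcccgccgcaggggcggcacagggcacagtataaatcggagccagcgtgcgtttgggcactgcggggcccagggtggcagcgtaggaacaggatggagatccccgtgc
Hspb8, chr5:116422815-116423114, minus strand: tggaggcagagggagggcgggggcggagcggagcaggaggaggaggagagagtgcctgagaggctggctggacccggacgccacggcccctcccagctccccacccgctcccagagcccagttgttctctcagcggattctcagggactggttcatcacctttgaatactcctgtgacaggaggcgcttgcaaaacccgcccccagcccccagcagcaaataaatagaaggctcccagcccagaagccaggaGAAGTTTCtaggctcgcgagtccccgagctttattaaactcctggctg
Bag3, chr7:128523333-128523632, plus strand: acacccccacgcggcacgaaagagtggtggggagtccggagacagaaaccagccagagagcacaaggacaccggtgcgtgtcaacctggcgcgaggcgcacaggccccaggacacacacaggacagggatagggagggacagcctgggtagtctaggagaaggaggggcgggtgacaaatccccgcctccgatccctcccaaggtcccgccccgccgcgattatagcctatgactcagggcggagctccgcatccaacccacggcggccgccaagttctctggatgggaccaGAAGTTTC
Hspb3, chr13:113663627-113663926, minus strand: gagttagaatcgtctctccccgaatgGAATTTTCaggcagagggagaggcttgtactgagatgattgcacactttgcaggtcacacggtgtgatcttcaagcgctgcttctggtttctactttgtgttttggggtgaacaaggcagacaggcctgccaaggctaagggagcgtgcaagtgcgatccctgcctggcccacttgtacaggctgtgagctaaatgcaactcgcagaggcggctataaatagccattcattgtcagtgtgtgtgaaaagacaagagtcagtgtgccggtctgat

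Positions of the matches are counted from the RefSeq start site, taken as 0. They were close to each other in Hspb1 and at the main Hspb6 start, and differed in the other members. In Hspb1 GAAGTTTC ran from -117 to -110, and GAACCTTC followed from -97 to -90. In the window of the main Hspb6 start GAAGTTTC ran from -120 to -113. In Hspb8 it ran from 2 to 9 and in Bag3 from 42 to 49, both after the start. The quantified Bag3 transcript begins at 128523616 in M21, downstream of the RefSeq start at 128523583, so its match lies nearer to that transcript's start. In Hspb3 the match was GAATTTTC, far upstream from -224 to -217. The window at the upstream start of Hspb6, near which the transcript with 1.88% of the gene begins, had no match, nor did those of Hspb7 and Unc45b. An element of 3 alternating units was found in none of the 8 windows and in 0.603% of all windows. Only exact spellings were searched, so an element with an imperfect unit would be missed. In Bag3 the match ends at the last base of the window, so a further unit after it could not be seen.

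The E-box, CANNTG, was found in 5 of the 7 members and in 72.3% of all windows. A TATA box, TATAAA, was found in Hspb3 and at the main Hspb6 start, and in 13.6% of all windows. The MEF2 box and the CArG box, added after the windows had been seen, were found in 1 member (Hspb3, overlapping the TATA box) and in none, against 3.19% and 1.63% of all windows. A match describes letters in a window and not a bound site, and no binding was measured. The genes with GAAGTTTC included the lowest member, Bag3 at 19.7 TPM, and the highest, Hspb1 at 735 TPM. Cryab, Hspb2 and Hsp90aa1 had no window searched, and a link between this spelling and level was not tested.

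**Figure D3:**
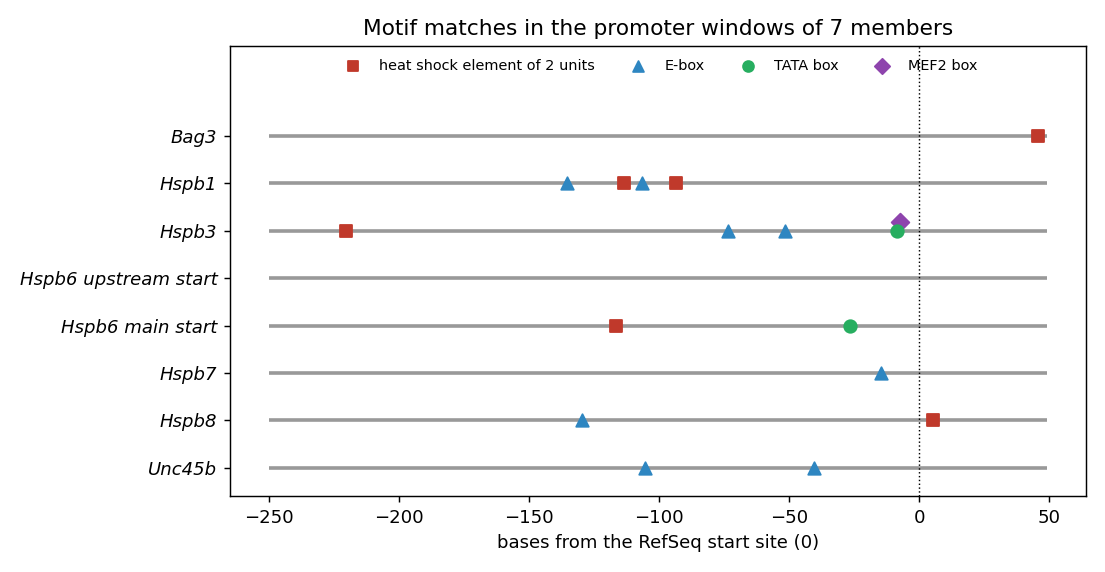
Motif matches along the RefSeq promoter windows of 7 members, with distance from the start site (0) in bases on the horizontal axis; squares are heat shock elements of 2 units, triangles E-boxes, circles TATA boxes and the diamond a MEF2 box. Squares appear in Hspb1, Hspb3, Hspb8, Bag3 and at the main Hspb6 start, and in neither Hspb7 nor Unc45b.

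Between the libraries no member was more than 1.5-fold apart by TMM-scaled CPM, against 7.14% of the 12987 genes above. Among protein-coding genes averaging at least 10 TPM, as all 10 members do, the share was 2.21%. Hspb7 was furthest, 1.29-fold higher in replicate 2 (log2 ratio of replicate 2 over replicate 1 0.36). Hspb1 was 1.19-fold higher in replicate 1 (log2 -0.26) and Bag3 1.16-fold higher there (-0.22). Over the 12987 genes the median of the ratios was -0.01 and their robust spread 0.19. The other members lay between -0.19 (Hspb2) and 0.11 (Hspb3), with Cryab at 0.05, Hsp90aa1 at 0.06, Hspb6 at -0.03, Unc45b at -0.09 and Hspb8 at -0.17. In all, 4 members were higher in replicate 2 and 6 in replicate 1, with a median of -0.06. Of the 12987 genes, 47.0% were higher in replicate 2, so the members' split was near that of all genes. The credibility intervals of the 2 libraries were apart for 7 of the 10 members, against 30.0% of such genes; intervals narrow as counts rise, and they hold no spread between pools. The biological coefficient of variation was 0.201 by edgeR, over 17219 genes that each library counted at least 10 times.

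Summed markers of other tissues and cell types also differed between these libraries. Sums are in TPM, which is scaled over spike-ins too (1.62% and 3.41% of the counts in replicates 1 and 2). The numbers of markers higher in a replicate are by TMM-scaled CPM. Cacna1s (skeletal muscle), Klf1 (erythroid) and Emcn (endothelial) were higher in replicate 2 by that measure but in replicate 1 by TPM. Of the 14 skeletal muscle markers other than Ckm and Acta1, 11 were higher in replicate 2, where their summed level was 101.2 TPM against 43.3 TPM in replicate 1; Myh4 had 0 counts in both. The 5 lung epithelial markers summed to 933 TPM in replicate 1 and 102 TPM in replicate 2, and all were higher in replicate 1, led by Sftpc. The 6 thymocyte markers summed to 88.7 and 232 TPM, all higher in replicate 2. The 6 fibroblast markers summed to 2407 and 2009 TPM, with 5 higher in replicate 1, and the 6 smooth muscle markers to 1470.0 and 1235 TPM, all higher in replicate 1. The 5 erythroid markers measured summed to 32148 and 27250 TPM, with 3 higher in replicate 1 and 2 in replicate 2, and the 5 endothelial markers to 229 and 217 TPM, with the same split. Cardiomyocyte markers went both ways, with Myl7 (0.55) and Myh6 (0.26) higher in replicate 2, as Hspb7 was, and Myl2 (-0.31) and Myh7 (-0.29) higher in replicate 1, as Hspb1 was. The part of these cells in the ratios of the members was not tested. The 11 lens markers, listed because Cryab is also a lens crystallin, summed to 5.6 and 5.14 TPM, with 2 of them at 1 TPM or more in both, and Cryba2 and Lim2 had 0 counts in both libraries.

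**Figure D4:**
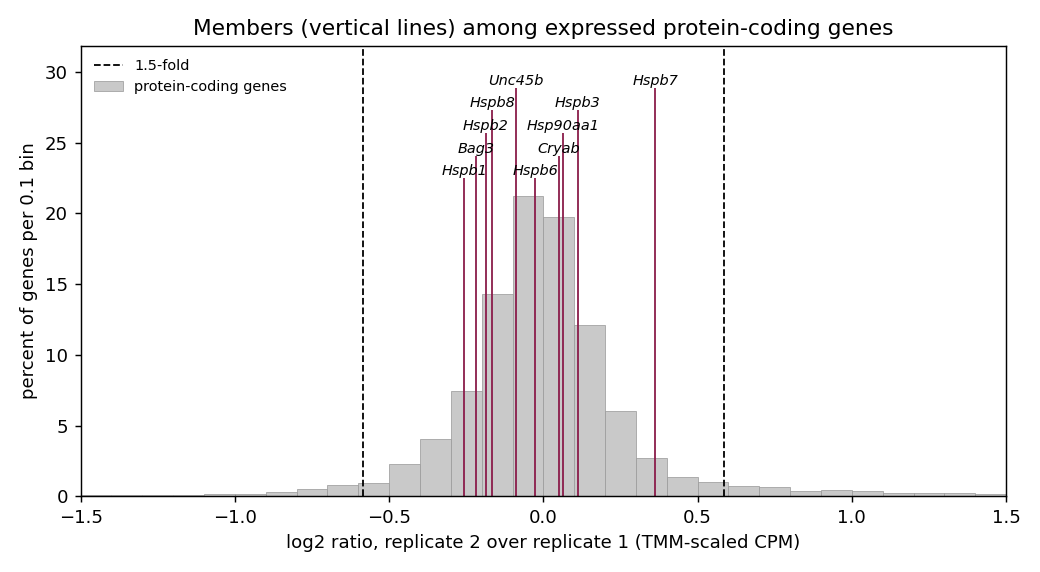
Percent of the 12987 protein-coding genes averaging at least 1 TPM (vertical axis) in each bin of the log2 ratio of replicate 2 over replicate 1 (horizontal axis, TMM-scaled CPM), with a vertical line for each member and dashed lines at 1.5-fold. All 10 members lie inside the dashed lines, from Hspb1 at -0.26 to Hspb7 at 0.36.

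Other chaperone genes set the members in context. Of 81 genes on 7 lists, 80 were measured and 74 reached 1 TPM in both libraries, against 59.1% of protein-coding genes. Hspa14 had no match by symbol. The rest of the small heat shock family was almost silent. The lens gene Cryaa and the testis gene Hspb9 each had 0 counts in replicate 1 and 3 in replicate 2. Odf1, another testis gene, had 0 counts in both, which allows up to 3 counts, or 0.112 and 0.101 TPM, for counting error only. Hspb11, which encodes a ciliary transport protein despite its symbol, was the exception, with 25.6 TPM ± 1.93.

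Of the heat shock factor genes, Hsf1, the main activator of the heat shock response, had 35.6 and 31.6 TPM, and Hsf2 had 14.4 and 13.0 TPM. Hsf4, known for its role in the lens, had 9 and 11 counts, and Hsf5 had 9 and 14. Hsbp1, which encodes a binding protein that restrains HSF1, had 248 and 233 TPM. Of the HSP70 list, 13 of the 14 measured genes reached 1 TPM in each library, and the list's median was 13.7 TPM. The constitutive Hspa8 led (1631 TPM ± 31.2), followed by Hspa5 of the endoplasmic reticulum (557 ± 44.9) and mitochondrial Hspa9 (324 ± 8.63). The stress-induced genes Hspa1a (3.22 and 3.49 TPM) and Hspa1b (0.09 and 0.15 TPM), named here after their values were seen, were low in both libraries; they are near-identical copies, so their split is uncertain.

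All 15 J-domain co-chaperone genes, whose products hand clients to HSP70, reached 1 TPM in each library (median 52.6 TPM). The highest were Dnaja1 (202 TPM ± 6.27), Dnajc7 (184 ± 1.02) and Dnaja2 (109.6 ± 12.1). All 14 genes of the HSP90 list also reached 1 TPM in each library (median 120.1 TPM). They were led by Hsp90ab1, Hsp90b1 (337 ± 10.8) and the HSP90-binding immunophilin Fkbp4 (237 ± 20.04). In the list of BAG and autophagy genes 12 of 12 reached 1 TPM in each library (median 62.9 TPM). The highest there were Map1lc3a (362 ± 31.8), Sqstm1 (215 ± 8.92), the autophagy receptor p62, and Map1lc3b (181 ± 21.2). The 16 chaperonin and prefoldin genes all reached 1 TPM, with the highest median (225 TPM) of the 7 lists, led by Hspd1 (408 ± 2.11), Cct3 (316 ± 5.18) and Cct5 (292 ± 2.51). Only Hspa8 and Hsp90ab1 among the listed chaperones had a higher mean than Cryab or Hspb1. The median log2 ratio between the libraries ran from -0.11 (heat shock factors) to 0.1 (HSP70 genes) over the 6 lists with 3 or more expressed genes.

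**Figure D5:**
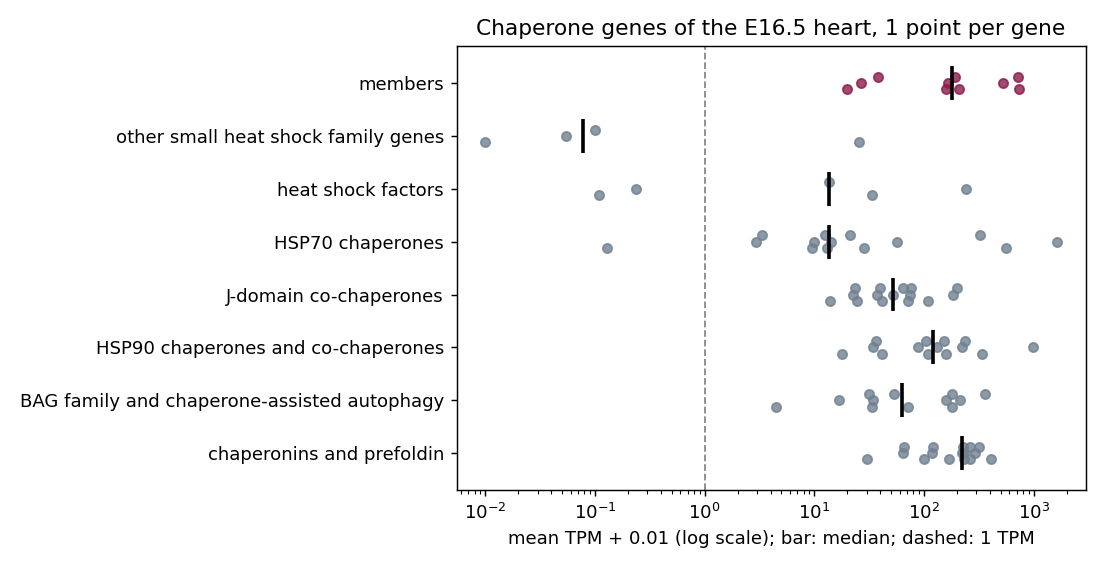
Mean TPM + 0.01 of each gene (horizontal axis, log scale) in the member list and the 7 other chaperone lists, with bars at the list medians and a dashed line at 1 TPM. Members span 19.7 to 735 TPM, while the other small heat shock family genes apart from Hspb11 lie under 0.1 TPM.

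Transcripts of genes whose products are known as clients or partners of these chaperones in muscle were detected. Each of the 11 listed exceeded 10 TPM in either library (median 613 TPM). The highest were cardiac actin, Actc1 (12435 TPM ± 301), beta-myosin, Myh7 (2909 ± 472), a client of UNC45B, and the Z-disc gene Actn2 (1185 ± 58.5). The filamin C gene, Flnc, a partner of HSPB7 and BAG3 named after its value was seen, was the lowest at 40.8 and 29.8 TPM.

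Over the 2 libraries, the protein-coding genes outside these lists with levels nearest to Hspb1 were Tuba1a (746 and 656 TPM) and Fam162a (752 and 685 TPM). Those nearest to Cryab were Acadl (722 and 737 TPM) and Rps18 (713 and 705 TPM). Nearness was the Euclidean distance of log2(TPM + 0.1), which was 0.12 for both neighbours of Hspb1 and 0.03 and 0.04 for those of Cryab. With 2 libraries it compares levels only.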

How the data were processed

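Per the notes deposited with the files, the authors quantified the libraries one by one on mm10 with annotation M4. No aligner or quantification tool is named there. The deposited estimated counts are fractional and unnormalized. The deposited TPM values are scaled over every row, spike-ins among them, by an effective length of length minus 99. For transcripts the deposited tables add a percent of the gene's TPM.

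Gene names, classes and coordinates came from GENCODE M21 on GRCm38, the assembly of mm10, by identifier without version; 42462 of 43346 gene identifiers matched. Other rows stayed out of library sizes; spike-ins held 1.62% and 3.41% of the counts. Ratios between libraries used counts with 0.5 added, scaled by TMM (edgeR 4.0.16, on genes counted at least 10 times by each library, factors 1.00 and 0.996). This step was tested on simulated data with a lower biological coefficient of variation than the 0.201 of these libraries. That test does not show how the step performs at the variation seen here. edgeR's common dispersion used rounded counts. Alternatives were DESeq2 1.42.0 size factors, other pseudocounts and filters, posterior means and single libraries.

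The members, lists, pairs and motifs were chosen with earlier results of these data known. Named genes are the members, pair partners, the 3 highest genes of each chaperone list, every gene of lists of 5 or fewer, the 2 nearest genes of the 2 highest members, and transcripts with at least 5% of a member. Overlapping genes, single markers, Hspa1a, Hspa1b and Flnc fall outside this rule and were chosen after their values were seen. Protein sequences were not used here.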

Additional observations from a re-analysis of the deposited data

How the results depend on the processing

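No paired analysis was possible because the labels give a single group. With 1 group of 2 libraries and no test, the spread shown is that between these libraries. All 10 members reached 0.5, 1 and 10 TPM, and they reached 1 TPM by posterior means and in each library alone. The share of all protein-coding genes was computed at 1 TPM (59.1%) but not at 0.5 or 10 TPM. Posterior means changed member levels by -2.026% to -1.11%, and rescaling TPM to annotated mouse genes by 5.24% to 5.65%. The log2 ratios of the members between libraries kept their direction, and moved by less than the spread over genes, in all 40 recomputations. At the lower alternative fold threshold, which is below 1.5-fold, 1 member, Hspb7, was apart, and at 2-fold none. The share of protein-coding genes was computed at 1.5-fold but at neither of these thresholds, so these counts cannot be read as high or low. The share of protein-coding genes over 1.5-fold apart was 18.0% with no filter on low values and 2.21% at a mean of at least 10 TPM. Counts not corrected for length moved the log2 ratios of pairs to 0.41 for Cryab over Hspb1 and -0.12 for Hspb8 over Bag3, both turned, and to 2.47 for Cryab over Hspb2, 1.4 for Hspb7 over Hspb6, 3.57 for Unc45b over Unc45a and -1.58 for Hsp90aa1 over Hsp90ab1. Counts weigh longer transcripts more by construction. Full-length coding transcripts alone, chosen after seeing the data, gave -2.61 for the last pair. In single libraries Cryab over Hspb1 ran from -0.18 to 0.13. No promoter window (0 members) held the heat shock element of 3 units. Of the chaperone list genes, 74 reached 1 TPM and 69 reached 10 TPM.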
